A study of Mus musculus with 6 samples.

Results

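The interleukin 17 receptor family consists of 5 genes, Il17ra, Il17rb, Il17rc, Il17rd and Il17re, out of 18193 genes with a probe set of their own on the arrays. The members were taken as all probe sets that the platform annotation assigns to 1 of these genes alone, which gave 10 of the 45037 probe sets. The family was chosen by its differences between these same arrays, with Il17rb and Il17re lying far from 0, so the differences of the receptors are given as a description and without p-values. The receptors did not move as a group. With Arid1a deleted, in Arid1a d/d uteri, Il17rb was about 6.08-fold lower than in Arid1a f/f uteri. Il17re was 4.58-fold higher on the probe set that was brightest over all arrays, and 1.38-fold higher on the one brightest in Arid1a f/f uteri. Il17rd was 1.58-fold lower on its brighter probe set, a difference that was not called at an adjusted p under 0.05. The arrays of both genotypes overlapped on the brightest probe sets of Il17ra and Il17rc.

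Interleukin 17 receptors are single-pass membrane proteins that work in pairs. IL17RA is the common chain. With IL17RC it receives IL-17A and IL-17F, with IL17RE it receives IL-17C, and with IL17RB it receives IL-25, while IL17RB also binds IL-17B. Their intracellular SEFIR domain recruits the adaptor ACT1, encoded by Traf3ip2, and through TRAF proteins activates NF-kappaB, C/EBP and MAP kinase signalling. In mucosal epithelia IL-17A and IL-17C raise antimicrobial proteins and neutrophil chemokines, and IL-25 drives type 2 responses of lymphoid cells. IL17RD, also named SEF, is best known as a feedback inhibitor of fibroblast growth factor signalling.

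Affymetrix expression arrays measured whole-uterus RNA at 3.5 days post coitum (dpc), 3 for each genotype, Arid1a f/f or Arid1a d/d. Both genotypes carry floxed alleles of Arid1a, a subunit gene of the SWI/SNF chromatin remodeling complex, and all females were mated. Arid1a d/d mice carry in addition Cre recombinase at the Pgr locus, so deletion is limited to PGR-expressing cells and the groups also differ at Pgr, with no group of Cre alone. The sources used here do not give the age of the females on the arrays or state whether each array came from a separate mouse, so the errors measure the spread between these samples, which may be technical. The intensity of Arid1a averaged 91.4 ± 10.9 (SD, n = 3) with Arid1a f/f, against 54.0 ± 3.61 (SD, n = 3) with Arid1a d/d, and the groups did not overlap. Whether that probe set lies within the deleted part is unknown here, so this may not check the deletion. The other Arid1a probe set was lower too, at means of 4.09 and 2.68, close to the array medians. From assays of protein, the paper reports ARID1A strongly reduced on western blot and no staining in Arid1a d/d uteri. All 11 measured epithelial, 10 stromal fibroblast and 9 smooth muscle markers lay above the median intensity of every array, and Arid1a d/d replicate 2 stood apart with epithelial markers that summed to 2475, against 1231 at the lowest Arid1a d/d array. Fewer cells of a type and less RNA per cell cannot be told apart in RNA of whole uterus.

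Intensities are on the linear scale of the deposited table, whose median was 3.05 to 3.17 on the arrays. No detection calls come with them, so a value near or below the median cannot be told from background. Intensities of different probe sets cannot be compared with each other, and each is compared only between genotypes. Log2 differences are Arid1a d/d minus Arid1a f/f, each with the standard error of limma, a linear model fitted over all probe sets. A probe set was called at a Benjamini-Hochberg adjusted p under 0.05 over all of them. Of the 10 receptor probe sets, 7 lay above the median on all 6 arrays and 2 below it on all 6. The latter were the second probe sets of Il17rc and Il17rd.

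In the fit over all probe sets, 3 receptor probe sets were called higher in Arid1a d/d mice, all of Il17re, against 2.42% of all probe sets. The Il17re probe set with the smallest difference kept its call when Arid1a d/d replicate 1 was left out, but lost it without any other array. The single probe set of Il17rb was called lower, against 2.35% of all probe sets, and 6 were not called. The arrays of the genotypes did not overlap on 3 receptor probe sets that were higher, against 11.0% of all probe sets, and on 3 that were lower, against 11.5%. These counts come from the contrast that the family was chosen by and describe it only. The median log2 difference over the 10 probe sets was -0.012, and that over all probe sets was -0.0076.

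**Figure D1:**
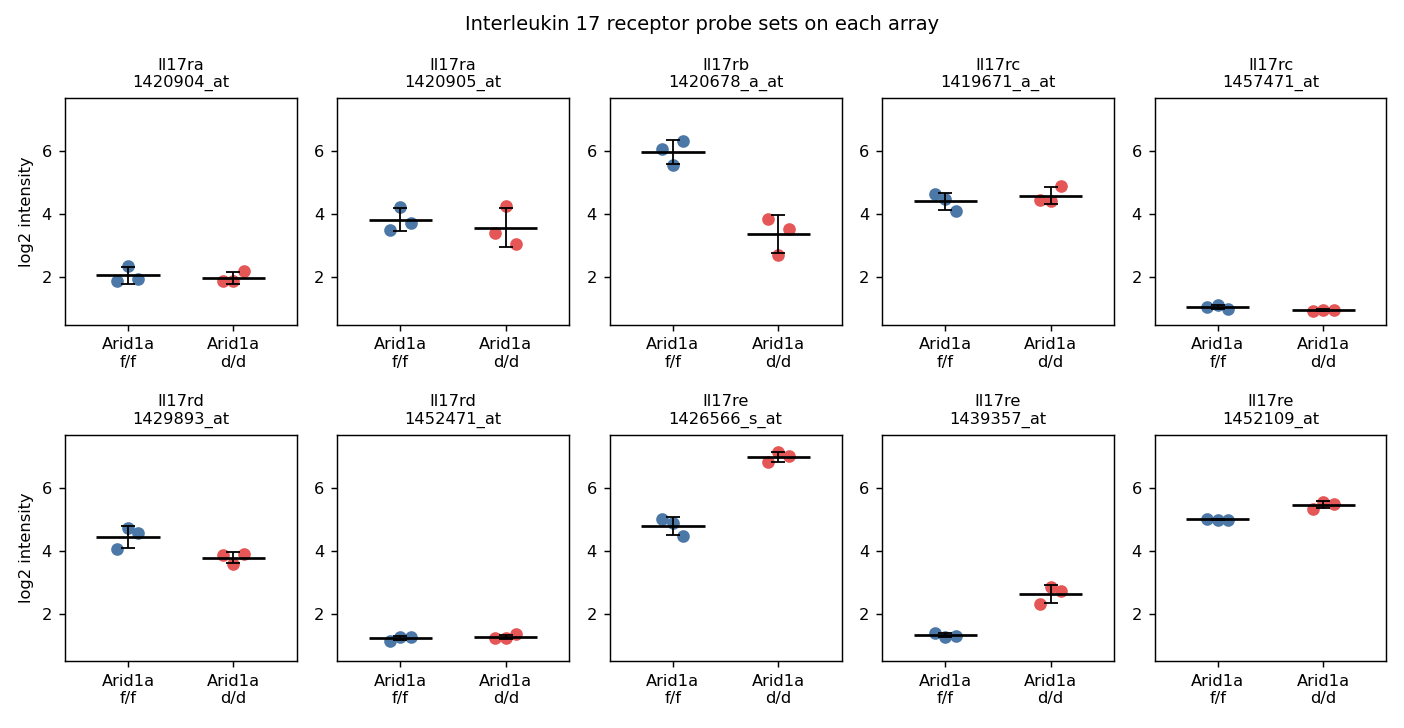
Log2 intensity (vertical axis) of each receptor probe set on the 3 Arid1a f/f arrays (blue) and the 3 Arid1a d/d arrays (red). Points are arrays, and the black bar with its error bar is the mean ± SD. Il17rb fell from a mean of 5.98 to 3.38, the brightest probe set of Il17re had means of 4.81 and 7.00, and the second probe sets of Il17rc and Il17rd lie near 1 in both genotypes.

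Il17rb, the receptor chain for IL-25 and IL-17B, had intensities of 67.2, 47.3 and 79.9 on the Arid1a f/f arrays. On the Arid1a d/d arrays they were 14.6, 6.60 and 11.7. Every Arid1a d/d array thus lay far below every Arid1a f/f array, and Arid1a d/d replicate 2 was the lowest. The means were 64.8 ± 16.4 (SD, n = 3) and 11.0 ± 4.03 (SD, n = 3), a log2 difference of -2.61 (standard error 0.29). Of all 18193 genes, 11 had a log2 difference as low as this or lower, Il17rb included. The difference lay between -2.85 and -2.28 when each array was left out in turn.

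The gene whose pattern over the 6 arrays was nearest to that of Il17rb was Cxcl15, which encodes a chemokine made by uterine glands. The measure was the Euclidean distance between log2 intensities centred on their mean, over 18192 other genes, and was 0.50 for Cxcl15. Cxcl15 had 35.8, 28.4 and 53.0 on the Arid1a f/f arrays and 7.34, 5.11 and 7.09 on the Arid1a d/d arrays. Sbspon, with a distance of 0.77 and a log2 difference of -2.27, and Pla2g10, which encodes a secreted phospholipase A2, with a distance of 0.77 and a log2 difference of -2.40, came next. All 4 genes were higher on Arid1a f/f replicate 3 than on replicate 2, and lowest on Arid1a d/d replicate 2. Cxcl15, Sbspon and Pla2g10 were picked for their likeness to Il17rb on these same arrays, so this agreement follows from the choice.

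Most markers of uterine glands were lower as well. Of 8 measured gland markers, 0 were called higher and 4 lower in limma (0 higher and 7 lower at an unadjusted p under 0.05, and 0 of either after adjustment in the methods' t-test), with a median log2 difference of -2.66. That median was -1.66 without Arid1a f/f replicate 2, and its size is uncertain, since 4 of the 8 markers (Prss28, Prss29, Spink1 and Ttr) had Arid1a d/d means below the array medians. The serine protease inhibitor gene Spink1, whose older symbol is Spink3, had -6.30 (adjusted p = 0.000658, limma), Ttr -2.87 (adjusted p = 0.00966), Cxcl15 -2.55 (adjusted p = 0.00183) and Wfdc3 -1.70 (adjusted p = 0.00172). Spink1 and Ttr were at background in Arid1a d/d mice and Wfdc3 was near it, so these differences are uncertain in size too. As the mean of their probe sets Ttr had -1.57 and Wfdc3 -0.87. The transcription factor gene Foxa2, which is needed for gland formation, had -1.05 (adjusted p = 0.0512) and did not pass the test. Sult1d1 had 0.17 (adjusted p = 0.875). Foxa2 and Sult1d1 are named outside the rule for named genes, after their values were seen. The markers summed to an intensity of 260 to 812 with Arid1a f/f, against 93.5 to 200 with Arid1a d/d, and none was listed at 0. The part of the glands in the Il17rb difference was not tested.

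**Figure D2:**
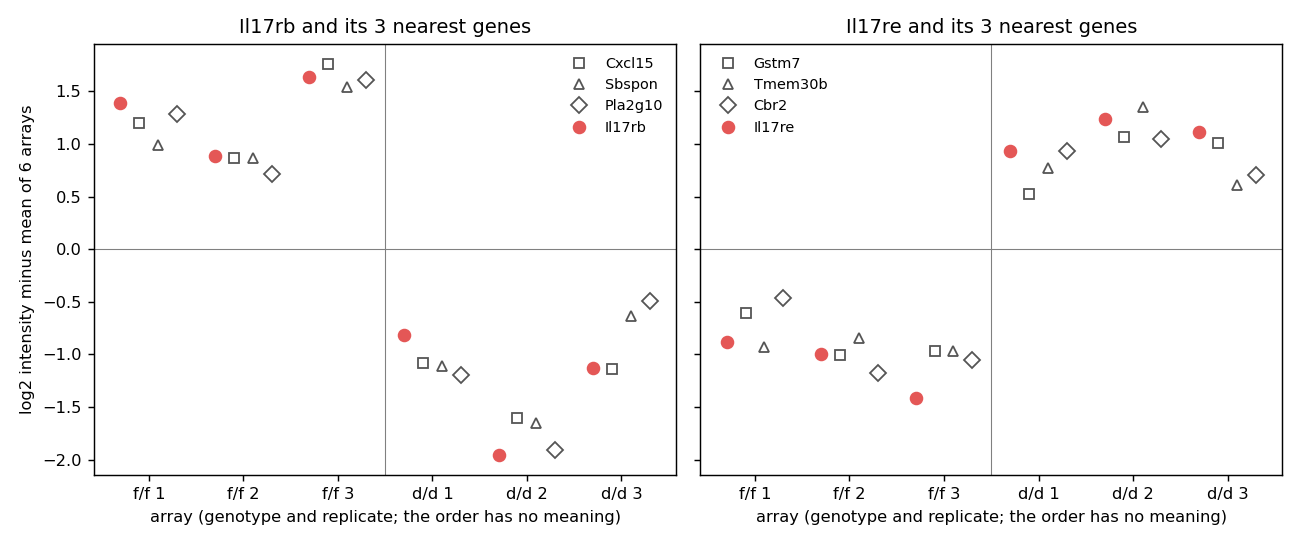
Log2 intensity minus the mean of the 6 arrays (vertical axis) on each array (horizontal axis) for Il17rb (left, red) and Il17re (right, red), each with the 3 genes nearest in pattern (open symbols). Il17rb and Cxcl15 lie close together on every array, at a distance of 0.50, and the genes nearest to Il17re lie at 0.70 to 0.74. The genes were picked for this closeness.

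Il17re, the chain that pairs with IL17RA for IL-17C, is read by 3 probe sets, and on all 3 the genotypes did not overlap, with Arid1a d/d the higher. The brightest had 32.6, 29.97 and 22.5 on the Arid1a f/f arrays. It had 114, 141 and 130 on the Arid1a d/d arrays. The means were 28.3 ± 5.25 (SD, n = 3) and 129 ± 13.5 (SD, n = 3), a log2 difference of 2.19 (standard error 0.15), and 21 of all genes had a difference as high or higher, Il17re included. It lay between 2.04 and 2.30 when each array was left out.

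The probe sets of Il17re disagreed in size. The brightest over all arrays was so by its Arid1a d/d values, and the second had the higher mean in Arid1a f/f mice, 32.3 against 28.3. The rank among all genes given above holds for that choice of probe set. On the second probe set the Arid1a f/f arrays had 32.8, 31.9 and 32.1, and the Arid1a d/d arrays 40.8, 47.6 and 45.6. That is a log2 difference of 0.47 (standard error 0.10), although this probe set was designed from the same database sequence as the brightest. The dimmest probe set had 2.65, 2.41 and 2.49 in Arid1a f/f mice, below the array medians, and 5.03, 7.22 and 6.69 in Arid1a d/d mice. Its log2 difference of 1.31 (standard error 0.14) is therefore uncertain in size. As the mean of the 3 probe sets Il17re had 1.32. The brightest is of a kind that can detect several transcripts, and which transcripts each of the 3 detects, of Il17re or of another gene, was not tested.

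The genes nearest in pattern to Il17re were Gstm7, a glutathione S-transferase gene (distance 0.70, log2 difference 1.72), Tmem30b (distance 0.72, log2 difference 1.83) and Cbr2, a carbonyl reductase gene (distance 0.74, log2 difference 1.79). Epithelial markers in the same RNA were higher by their median, but ranged from -0.39 for Cldn3 to 1.73 for Elf3. Of 11 measured, 1 was called higher, Cdh1, which encodes E-cadherin, and 0 lower in limma (7 higher and 0 lower at an unadjusted p under 0.05, and 0 of either after adjustment in the methods' t-test). Their median log2 difference was 0.77, and 0.39 without Arid1a d/d replicate 2. They summed to 1169 to 1252 with Arid1a f/f, against 1231 to 2475 with Arid1a d/d, with none listed at 0. Cdh1 had 0.92 (adjusted p = 0.0119, limma) and was not called without Arid1a f/f replicate 2. Cldn4 lay between -0.28 and 0.011 when each array was left out. Cldn3, Cldn4 and Elf3 are named outside the rule for named genes, after their values were seen. Without Arid1a d/d replicate 2 the brightest probe set of Il17re had 2.12, the dimmest 1.21 and the second 0.42, which was no longer called. The part of the epithelium in the Il17re difference was not tested.

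Il17rd, the feedback inhibitor chain, had 16.7, 26.4 and 23.8 on the Arid1a f/f arrays and 14.9, 12.0 and 15.1 on the Arid1a d/d arrays. The groups did not overlap, but Arid1a f/f replicate 1 lay close to the highest Arid1a d/d array. The means were 22.3 ± 5.05 (SD, n = 3) and 14.0 ± 1.73 (SD, n = 3), a log2 difference of -0.66 (standard error 0.18). This difference was not called on all arrays. It was -0.85 when Arid1a f/f replicate 1 was left out, the only such fit that called it, and -0.52 when replicate 2 was. The second probe set of Il17rd stayed between 2.24 and 2.56 on the 6 arrays, below their medians, so the mean of both was -0.30.

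The genes nearest to Il17rd in pattern were Gucy1a2, which encodes a subunit of soluble guanylate cyclase (distance 0.20, log2 difference -0.57), N4bp2l1 (distance 0.21, log2 difference -0.53) and Cldn5, the claudin of endothelial tight junctions (distance 0.21, log2 difference -0.53). Endothelial markers fell in the same RNA. Of 10 measured, 0 were called higher and 9 lower in limma (0 and 10 at an unadjusted p under 0.05, and 0 of either after adjustment in the methods' t-test), with a median of -1.11. They included Vwf, which encodes von Willebrand factor (-1.46, adjusted p = 0.00227), Cdh5, the endothelial cadherin gene (-1.45, adjusted p = 0.00321), and the adhesion molecule genes Pecam1 (-1.33, adjusted p = 0.0113) and Esam (-1.32, adjusted p = 0.00100). Both probe sets of Cdh5 averaged -0.83. Cldn5 itself is on this list and was the 1 marker not called (adjusted p = 0.0974). The markers summed to 556 to 581 with Arid1a f/f, against 240 to 291 with Arid1a d/d, and none was at 0. Their part in the Il17rd difference was not tested.

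Il17ra, the common chain, had 11.4, 18.8 and 13.4 on the Arid1a f/f arrays and 10.6, 19.2 and 8.44 on the Arid1a d/d arrays of its brighter probe set. The groups overlapped, and replicate 2 was the highest in each genotype. The log2 difference was -0.25 (standard error 0.29). It was -0.59 without Arid1a d/d replicate 2, -0.044 when replicate 2 of Arid1a f/f was left out and 0.0064 without Arid1a d/d replicate 3, so its size and sign rest on single arrays. The other probe set had values from 3.67 to 5.14 and a log2 difference of -0.072 (standard error 0.15). The genes nearest to Il17ra were Skil (distance 0.43), Spry1 (distance 0.46) and Etv5 (distance 0.48). Spry1 encodes a Sprouty inhibitor of receptor tyrosine kinase signalling and Etv5 an ETS transcription factor downstream of it.

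Il17rc, the partner of IL17RA for IL-17A and IL-17F, had 24.9, 22.6 and 17.4 on the Arid1a f/f arrays and 21.9, 21.5 and 29.9 on the Arid1a d/d arrays. The groups overlapped, with a log2 difference of 0.18 (standard error 0.17). It was 0.022 without Arid1a d/d replicate 3, and 0.026 when replicate 3 of Arid1a f/f was left out. The second probe set of Il17rc had values from 1.92 to 2.18, all below the array medians, so its lack of overlap between genotypes, at a log2 difference of -0.094, cannot be told from background. The genes nearest to Il17rc were Pcdh7 (distance 0.14), Xaf1 and Cep112 (distance 0.15 each).

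**Figure D3:**
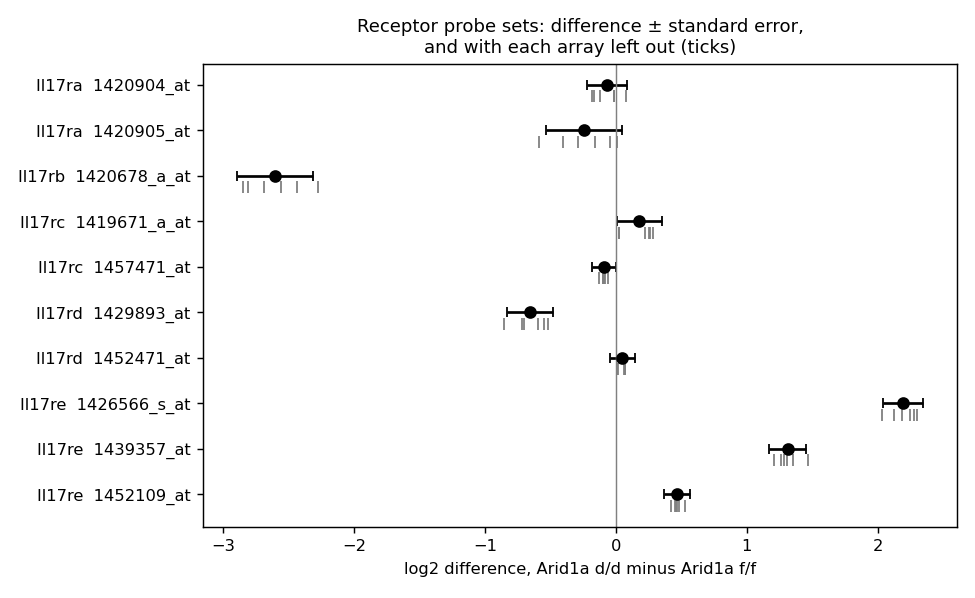
Log2 difference (horizontal axis, Arid1a d/d minus Arid1a f/f) of each receptor probe set, with its standard error (bar, 3 arrays per genotype) and the value when each array was left out (grey ticks). Il17rb lies at -2.61 and the probe sets of Il17re at 2.19, 1.31 and 0.47, while the ticks of Il17ra and Il17rc reach 0 or close to it.

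Il17re and Il17rc are neighbouring protein-coding genes on mouse chromosome 6, yet Il17re was higher and Il17rc overlapped between genotypes. Jagn1, the coding gene on the other side of Il17re, had a log2 difference of 0.30 (adjusted p = 0.169, limma), and Creld1, beyond Il17rc, one of -0.18 (adjusted p = 0.457). Il17rb lies on chromosome 14 between Actr8 and Chdh. Chdh, which encodes choline dehydrogenase, is on the opposite strand, and 1 of its 3 promoter windows shares 203 bases with that of Il17rb, while the others share none. Chdh had 154, 131 and 159 on the Arid1a f/f arrays and 114, 72.6 and 129 on the Arid1a d/d arrays. These did not overlap, but the log2 difference of -0.53 was not called (adjusted p = 0.201, limma). Actr8 had -0.14 (adjusted p = 0.627). These neighbours were named for their position, outside the rule for named genes.

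RefSeq promoter windows (GRCm38.p6, 250 bases before to 50 after the start) were found for Il17rb, Il17rc, Il17rd and Il17re. They were searched on both strands for an AP-1 motif (TGANTCA), an estrogen response element half-site (TGACC) and a progesterone response element half-site (TGTTCT). The motifs were taken because the AP-1 gene Fos is in a list below and because both hormone receptors act in this tissue. The AP-1 motif occurred once, in Il17rb, and in 7.81% of all 32851 windows. That match lies in the bases shared with a promoter window of Chdh, whose difference was not called. The estrogen half-site occurred once each in Il17re and Il17rc, and in 40.5% of all windows. The progesterone half-site occurred in none of the 4 windows, and in 19.0% of all. The matches follow, 30 bases each, 5′ to 3′ on the strand of the gene, with the motif in capitals. They show which letters lie before the receptor that was lower, the one that was higher and its neighbour, and a match is not a site of binding.
Il17rb, chr14:30008982-30009011, minus strand, motif from -104 to -98: cctcccgggccTGAGTCAttcgcaccccgc
Il17re, chr6:113458706-113458735, plus strand, motif from -53 to -49: ggagaaggaatgTGACCaagcctgctggtt
Il17rc, chr6:113471243-113471272, plus strand, motif from -200 to -196: ctggggtctttcTGACCagatcgatcagaa

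None of the measured IL-17 cytokine genes was called. Of 6 such genes, listed as ligands, Il17a, Il17b, Il17d and Il25 were measured and Il17c and Il17f had no probe set of their own. No receptor of this family is named here for Il17d. In limma 0 were called higher and 0 lower (1 and 0 at an unadjusted p under 0.05, and 0 of either in the methods' t-test), against 3.37% of all genes called higher and 4.06% lower on 1 probe set a gene. Il17b and Il17d lay above the median of every array. Il25, a ligand of IL17RB, had values from 1.73 to 2.24, below the median of every array, and a log2 difference of -0.16 (adjusted p = 0.501). Il17b, the other ligand of IL17RB, had 4.18, 3.56 and 4.62 in Arid1a f/f mice and 4.94, 5.17 and 4.94 in Arid1a d/d mice, with no overlap and a log2 difference of 0.29 (adjusted p = 0.219). Il17a had 2.47 to 3.15 and a log2 difference of 0.047 (adjusted p = 0.899). Il17d had -0.55 (adjusted p = 0.417), and -0.15 without Arid1a f/f replicate 2, the one array on which it reached 12.6. Of 4 measured markers of IL-17-producing lymphocytes, of 9 listed, 2 lay above the median of every array, Cd3d and Cd3e. In limma 0 were called in either direction, also at an unadjusted p under 0.05 and in the methods' t-test. The T cell receptor chain gene Cd3e had values from 4.16 to 5.02 and a log2 difference of -0.13 (adjusted p = 0.550), and Cd3d had 0.086 (adjusted p = 0.873). The markers summed to 13.3 to 16.9 with Arid1a f/f, against 13.1 to 15.1 with Arid1a d/d.

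Genes of signalling by these receptors, its inhibitors included, were mostly not called, and those that were called were lower. Over the 7 lists of pathway genes, with ligands and targets, 72 genes were measured, of which 1 was called higher and 6 lower. Over all genes, on 1 probe set a gene, 3.37% were called higher and 4.06% lower. The median log2 difference of the 72 genes was -0.0073 (-0.018 over all genes). Of 11 adaptor and kinase genes, 0 were called higher and 1 lower in limma (0 and 4 at an unadjusted p under 0.05, and 0 of either after adjustment in the methods' t-test), with a median of -0.14. Traf3ip2, the gene of the adaptor ACT1, had 31.9, 33.5 and 40.3 in Arid1a f/f mice and 33.5, 25.4 and 34.8 in Arid1a d/d mice, a log2 difference of -0.18 (adjusted p = 0.603). The called gene, Ikbkg, encodes the regulatory subunit of the IkappaB kinase. It had -0.49 (adjusted p = 0.0420), was called only in the fit without Arid1a d/d replicate 1 of the 6 that left out an array, and the mean of its 6 probe sets was -0.044 (adjusted p = 0.801). Traf3ip2 is named outside the rule, as the adaptor gene of IL-17 receptor signalling.

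Of 7 transcription factor genes, 0 were called higher and 2 lower (0 and 2 at an unadjusted p under 0.05, and 0 of either after adjustment in the methods' t-test), with a median of -0.20. Cebpd, which encodes C/EBP delta, had 80.1, 130 and 127 in Arid1a f/f mice and 50.7, 42.7 and 40.5 in Arid1a d/d mice. The groups did not overlap, and the log2 difference of -1.31 (standard error 0.19, adjusted p = 0.00974, limma) was called in all 6 fits that left out an array. The mean of both Cebpd probe sets was -0.81. Fos, an AP-1 subunit gene, had 43.8, 61.5 and 133 in Arid1a f/f mice and 19.4, 26.9 and 14.7 in Arid1a d/d mice, a log2 difference of -1.85 (standard error 0.37, adjusted p = 0.0296). It was called in 2 of the 6 fits, without Arid1a d/d replicate 2 and without replicate 1 of Arid1a f/f. Of 7 inhibitor genes, 0 were called higher and 2 lower (0 and 3 at an unadjusted p under 0.05, and 0 of either after adjustment in the methods' t-test), with a median of -0.21. The MAP kinase phosphatase gene Dusp1 had -0.67 (adjusted p = 0.0262) and Tnip1, which encodes a partner of the ubiquitin-editing enzyme A20, -0.52 (adjusted p = 0.0415). Each was called in 1 of the 6 fits, Dusp1 in that without Arid1a d/d replicate 1 and Tnip1 in that without Arid1a d/d replicate 3.

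Genes that IL-17 is known to induce in epithelium and stroma were mostly not called. Of 25 measured of 28, 0 were called higher and 1 lower in limma (3 higher and 3 lower at an unadjusted p under 0.05, and 0 of either after adjustment in the methods' t-test), with a median of -0.015. Only 7 lay above the median of every array, and 8 lay below it on every array. For 15 the Arid1a d/d mean was not above the array medians, so the lack of calls among them cannot be read as a lack of response. The gene that fell was Mmp3, the stromelysin gene, at 6.49, 5.53 and 10.5 in Arid1a f/f mice and 3.18, 3.10 and 3.09 in Arid1a d/d mice. Its log2 difference was -1.21 (standard error 0.21, adjusted p = 0.0168), and it was not called without Arid1a d/d replicate 3, at an adjusted p of 0.0524. The Arid1a d/d values lie at the array medians, so the size of this difference is uncertain. Lcn2, the lipocalin 2 gene, is named after its values were seen. It had 51.2, 623 and 4.26 on the Arid1a d/d arrays and 4.39, 3.70 and 2.84 on the Arid1a f/f arrays, so the groups overlapped and the log2 difference of 3.84 (adjusted p = 0.184) did not pass the test. Without Arid1a d/d replicate 3, whose value lay among those of Arid1a f/f, it was 5.64 (adjusted p = 0.0229, limma), and without Arid1a d/d replicate 2 it was 2.04 (adjusted p = 0.299). Neutrophil markers other than Ltf, which uterine epithelium also makes, were not called. Of 8 measured, 1 was called higher and 0 lower, with a median of -0.029, and 5 lay below the median of every array. They summed to 23.6 to 32.1 with Arid1a f/f, against 82.3 to 175 with Arid1a d/d, where Ltf alone had 66.2 to 157 and a log2 difference of 3.80 (adjusted p = 0.00491).

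Of 10 genes of the type 2 response to IL-25, 7 lay below the median of every array and 3 above it. In limma 1 was called higher and 0 lower, with a median of 0.064. Ccl11, which encodes the eosinophil chemokine eotaxin, had 4.46, 7.42 and 5.73 in Arid1a f/f mice and 21.5, 25.7 and 11.7 in Arid1a d/d mice. All Arid1a d/d arrays lay above all Arid1a f/f arrays, with a log2 difference of 1.70 (standard error 0.29, adjusted p = 0.0163), and the call was lost without Arid1a f/f replicate 1 or 3. The other 9 genes had log2 differences that did not pass the test. Of 8 measured markers of type 2 innate lymphocytes and tuft cells, 1 was called higher and 1 lower, with a median of -0.069 and sums of 130 to 154 with Arid1a f/f, against 121 to 145 with Arid1a d/d. Avil, an actin-binding protein gene of tuft cells, had 1.20 (adjusted p = 0.0281), and was called in 2 of the 6 fits, while Klrg1, which is also a natural killer cell receptor gene, had -1.22 (adjusted p = 0.00751). Klrg1 lay below the array medians in Arid1a d/d mice and Avil lay near them in Arid1a f/f mice, so both sizes are uncertain.

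The FGF and ERK feedback genes, with which Il17rd is often grouped, were not called. Of 8 measured, 0 were called higher and 0 lower in limma, none had an unadjusted p under 0.05, and 0 were called in the methods' t-test, with a median of 0.092. Dusp6, the ERK phosphatase gene, had 53.6, 50.3 and 60.7 in Arid1a f/f mice and 42.4, 99.8 and 47.3 in Arid1a d/d mice, a log2 difference of 0.097 (adjusted p = 0.912). Spred2 had 0.29 (adjusted p = 0.383). Spry1 and Etv5, which were near Il17ra in pattern, had -0.55 (adjusted p = 0.398) and -0.43 (adjusted p = 0.301).

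**Figure D4:**
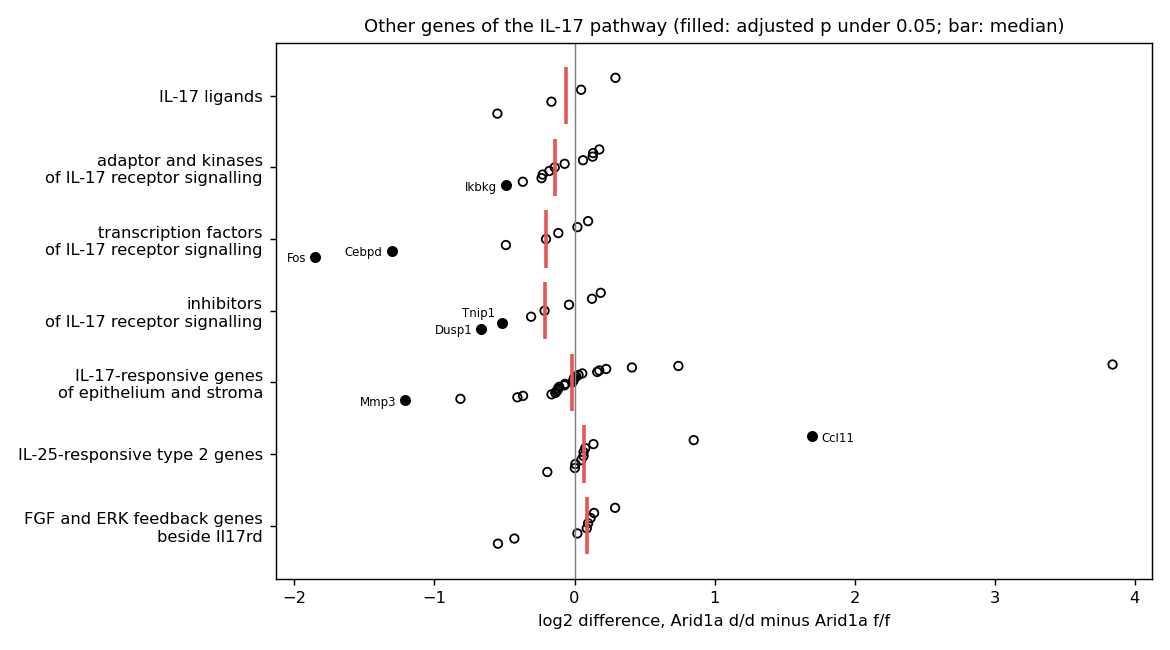
Log2 difference (horizontal axis, Arid1a d/d minus Arid1a f/f) of each measured gene in 7 lists of the IL-17 pathway (rows), from 3 arrays per genotype. Filled points have an adjusted p under 0.05 in limma, open points do not, and the red bar is the median of the list. The medians lie between -0.21 and 0.092, and the open point at 3.84 is Lcn2.

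Among the remaining cell types, 0 of 9 macrophage markers were called in either direction in limma (1 higher and 3 lower at an unadjusted p under 0.05, and 0 of either after adjustment in the methods' t-test), with a median of -0.14. The lysozyme gene Lyz2 had -0.062 (adjusted p = 0.920) and Csf1r, the receptor gene for macrophage colony-stimulating factor, -0.35 (adjusted p = 0.130). Of 10 stromal fibroblast markers, 0 were called higher and 1 lower, Dcn at -1.06 (adjusted p = 0.0180, called in 4 of the 6 fits that left out an array), with a median of -0.30. Of 9 smooth muscle markers, 0 were called higher and 1 lower, Des at -0.64 (adjusted p = 0.0313, called in 1 of these 6 fits, and -0.15 with an adjusted p of 0.379 as the mean of both probe sets), with a median of -0.28. Gland and endothelial markers were thus the lists in which at least 4 genes were called.

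**Figure D5:**
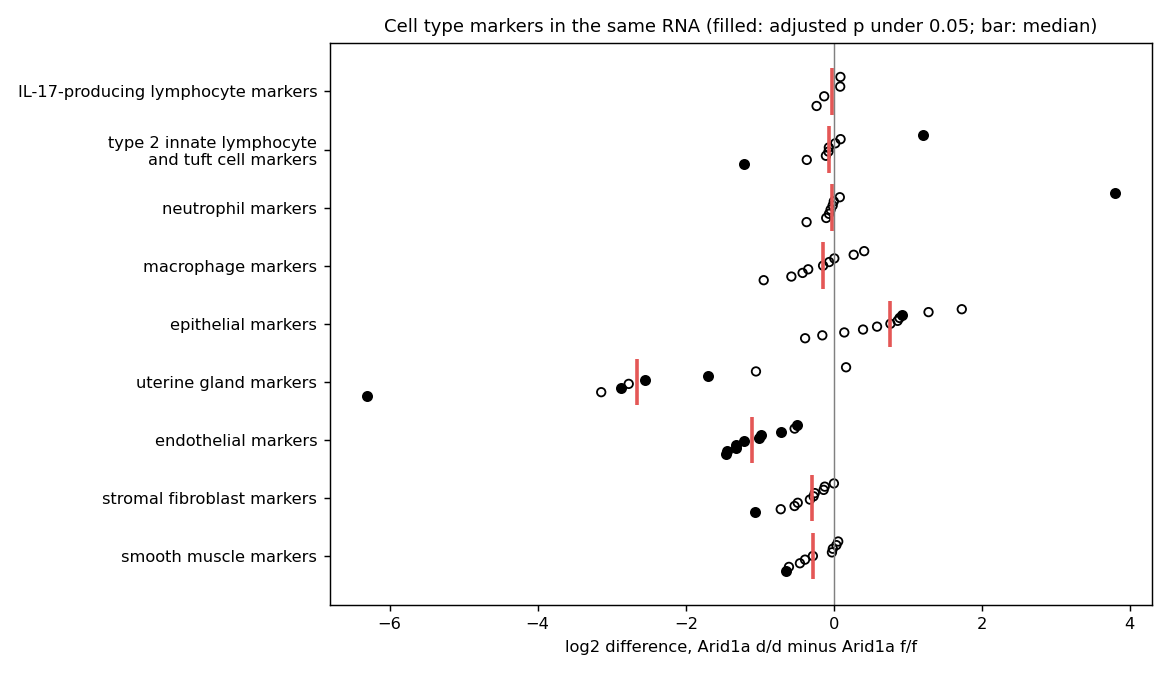
Log2 difference (horizontal axis, Arid1a d/d minus Arid1a f/f) of cell type markers measured on the same arrays (rows), 3 arrays per genotype. Filled points have an adjusted p under 0.05 in limma, and the red bar is the median of the list, at -2.66 for uterine gland (-1.66 without Arid1a f/f replicate 2), -1.11 for endothelial and 0.77 for epithelial markers.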

How the data were processed

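The authors hybridised total RNA of whole uteri to Affymetrix mouse arrays, 1 array per sample, and deposited intensity values that RMA and a global scaling step produced (RMA version not given in the sources used here). The methods scale each array to a target level that the deposited values do not have, and the step between them is not stated. The deposited intensities are linear, so log2 was taken first, with no filter on dim probe sets. Of the probe sets, 34945 name 1 gene, 932 several and 9160 none here. Il17c and Il17f are among the genes not analysed here.

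Arid1a d/d was set against Arid1a f/f in limma 3.58.1 (R 4.3.3) with lmFit and eBayes. Its p-values are two-sided and Benjamini-Hochberg adjusted over the 45037 probe sets, and the fit was tested on simulated data. A gene outside the family was represented by its brightest probe set, which was also used for the nearest genes. The receptors, the gene lists and the tests were chosen with earlier results of these data known. Named genes were all receptor probe sets, all ligands, up to 4 called genes in each other list (the 2 brightest where none was called) and the 3 genes nearest to each receptor, with the exceptions that the text states. Groups came from the sample titles. Alternatives tried were leaving out each array, the methods' t-test, stricter and looser thresholds, the mean of a gene's probe sets, a replicate block, median centring, quantile normalization, a filter on dim probe sets, and the trend and robust options of eBayes.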

Additional observations from a re-analysis of the deposited data

How the results depend on the processing

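With 3 arrays per genotype the number of arrays limits the precision, and the values hold no depth or detection call. Leaving out 1 array gave 241 to 941 higher and 337 to 878 lower probe sets (1090 and 1057 with all arrays), 2 to 3 higher and 1 to 2 lower receptor probe sets, and 0 to 2 higher and 2 to 5 lower pathway genes. Fewest probe sets were called without Arid1a f/f replicate 2. The receptors' log2 differences ranged from -2.85 to -2.28 for Il17rb, 2.04 to 2.30 for Il17re, -0.85 to -0.52 for Il17rd, -0.59 to 0.0064 for Il17ra and 0.022 to 0.29 for Il17rc, and that of Il17a from -0.022 to 0.15. The methods' t-test gave 3386 higher and 3316 lower probe sets at its threshold, 3 and 2 of the receptors' and 2 and 12 pathway genes. After Benjamini-Hochberg adjustment it gave 0 in each case. The paper applied a fold filter to the arrays, and that filter was not tried here. At an adjusted p under 0.10, limma called 1925 probe sets higher and 1814 lower, 2 receptor probe sets were lower and 2 pathway genes higher. Under 0.01, 152 were higher and 237 lower, with 0 pathway genes higher and 1 lower. As the mean of its probe sets Il17rd had -0.30 and Il17re 1.32. Replicate numbers were not taken as pairs: the deviations of same-numbered arrays correlated at -0.0036, 0.047 and 0.14, and not every array correlated best with its own number. The replicate block gave 1126 higher and 1039 lower probe sets, 2 receptor probe sets were higher and 1 lower, and 1 pathway gene was higher and 5 lower, since Ikbkg was no longer called. Ikbkg was also not called with median centring or with trend and robust options, nor Fos with the latter. Under quantile normalization the 5 receptors moved by less than the spread between arrays. A block cannot move a difference in this balanced design, and centring moves every gene alike.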
